A study of Mus musculus with 6 samples.

Results

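Pcdhb16 to Pcdhb22 are the last 7 of the 22 beta protocadherin genes of the mouse, and they lie side by side at the downstream end of the beta array on chromosome 18. They were taken by name, as every gene with a Pcdhb number from 16 to 22, and all 7 were found among the 54532 genes counted. RNA of whole brains was sequenced at postnatal day 14, with 1 library per brain, from 3 control brains (Mphosph8fl/+ Nestin-Cre+ per the labels) and 3 mutant brains (Mphosph8fl/fl Nestin-Cre+, labelled Mphosph8∆n). All mice were on the C57BL/6J background and all carried the Nestin-Cre transgene, which drives the recombinase in neural progenitors and their descendants. Cells of the controls thus kept 1 intact allele of Mphosph8 after recombination. Vessels, blood and microglia in the tissue do not descend from those progenitors. The study's text names no floxed allele for the controls, and the labels were followed here.

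Clustered protocadherins are transmembrane adhesion proteins of neurons with a row of extracellular cadherin repeats, and they recognise the same isoform on the neighbouring membrane. Which of these genes are active differs from neuron to neuron, and repressive chromatin lies over copies that are off. Beta members differ from alpha and gamma members in that no exons are shared along the array, so each gene has its own whole coding region. A promoter for each gene is common to the alpha, beta and gamma clusters. MPP8, the product of Mphosph8, binds trimethylated histone H3 lysine 9 as part of the HUSH silencing complex. The comparison of mutant with control brains addresses which of these genes change their RNA level when Mphosph8 is deleted in the nervous system.

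The 7 genes span 46666 bases (GRCm38, chromosome 18, 37477814 to 37524479, plus strand). Pcdhb16 (ENSMUSG00000047910) runs from 37477814 to 37483038, Pcdhb17 (ENSMUSG00000046387) from 37484795 to 37489454 and Pcdhb18 (ENSMUSG00000048347) from 37489465 to 37494505. Pcdhb19 (ENSMUSG00000043313) follows from 37496991 to 37504128, Pcdhb20 (ENSMUSG00000046191) from 37504264 to 37507822, Pcdhb21 (ENSMUSG00000044022) from 37513621 to 37518325 and Pcdhb22 (ENSMUSG00000073591) from 37517871 to 37524479. Most stand very close to each other. The gap between Pcdhb17 and Pcdhb18 is 10 bases and that between Pcdhb19 and Pcdhb20 is 135 bases, whereas Pcdhb20 and Pcdhb21 are 5798 bases apart. Pcdhb21 and Pcdhb22 overlap by 455 exonic bases on the same strand, and reads in that stretch cannot be told apart by their position. The first 6 genes are annotated with 1 exon, and Pcdhb22 has a 1-exon and a 2-exon transcript. No exon of a gene outside the 7 lies over them on either strand.

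In sequence the 7 genes were much alike, which bears on how well short reads can be given to 1 of them. Their coding regions hold 774 to 802 codons, while the exonic length runs from 3559 bases for Pcdhb20 to 7138 bases for Pcdhb19, so most of the difference in length lies outside the coding region. Over the 21 pairs of members, aligned coding bases were identical at 71.7% to 75.9%, with a median of 74.2%. This likeness was not particular to the 7. The median was 73.3% between members and other beta genes, and 74.7% among the other beta genes, where it reached 89.8%. The likeness was uneven along the gene. When the coding region was divided into 6 equal parts, the median identity was 64.2% in the first part, 92.0% in the fifth and 79.9% in the last. Even so, few whole stretches of 50 bases occurred also in a gene at another position. Genes that overlap in position were left out of this count, so it omits the 455 bases common to Pcdhb21 and Pcdhb22. For Pcdhb16 the count was 2.05% of its 50-base words. For Pcdhb20, the member with the most by this count, it was 5.47%, of which the largest part was shared with Pcdhb19.

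Depth was even over the brains, between 12956880 and 15223424 counts per library. Mphosph8 itself was at 55.8, 48.6 and 70.7 CPM (a gene's counts scaled to a common library size, after TMM normalisation) in the control brains and at 33.1, 27.2 and 26.5 CPM in the mutant brains, so every mutant brain was below every control brain. Control replicate 3 differed from the other libraries in its sex-linked genes, with 1338 counts of the Y-linked gene Ddx3y where the other 5 libraries had 0. It had 27 counts of Xist, against 11130 to 17697 in the others. By these genes it was the only male brain, so sex was not balanced between the groups. The labels give no sex, and results that change without this library are given below. Neuronal markers were present at summed levels of 4756.7 to 4981.2 CPM in the controls and 4756.1 to 5166.8 CPM in the mutants, and 0 of 8 passed an adjusted p of 0.05 in edgeR, DESeq2 or limma-voom. At an unadjusted p under 0.05, 1 of them was higher in DESeq2 and 0 in the other tools. All 8 oligodendrocyte markers had a negative log2 fold change, with summed levels of 21830.7 to 26124.4 CPM in the controls and 17402.3 to 20134.6 CPM in the mutants and none at 0. Mog and Cldn11, which encode myelin proteins, passed an edgeR adjusted p of 0.05, at 0.0351 and 0.0496, and DESeq2 put 5 of the 8 past it. The part of that difference in the protocadherin values was not tested.

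Of the 7 genes, Pcdhb17 and Pcdhb18 rose a little over 2-fold in mutant brains, Pcdhb20 rose about 1.5-fold, and Pcdhb16, Pcdhb19, Pcdhb21 and Pcdhb22 did not pass the test. A gene was called when edgeR's quasi-likelihood F test gave a Benjamini-Hochberg adjusted p under 0.05 over the 16731 genes tested and the fold change exceeded 2. By that rule 2 of the 7 were called higher, against 0.353% of all genes tested, and 0 were called lower, against 0.00598%. With edgeR, DESeq2 and limma-voom alike, 0 of the 7 were lower at an unadjusted p under 0.05. Few genes were lower at that limit in any case, 404 of the 16731 tested in edgeR. Without the fold limit 3 of the 7 were higher, against 0.532% of all genes. In 5 of the 7, every mutant brain was above every control brain, which held for 6.23% of all genes. The fitted difference was positive for all 7 and for 47.6% of all genes, with a median log2 fold change of 0.45 over the 7 and of -0.01 over all genes. In whole brain, a larger number of cells that transcribe a gene and more RNA per cell cannot be told apart.

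**Figure D1:**
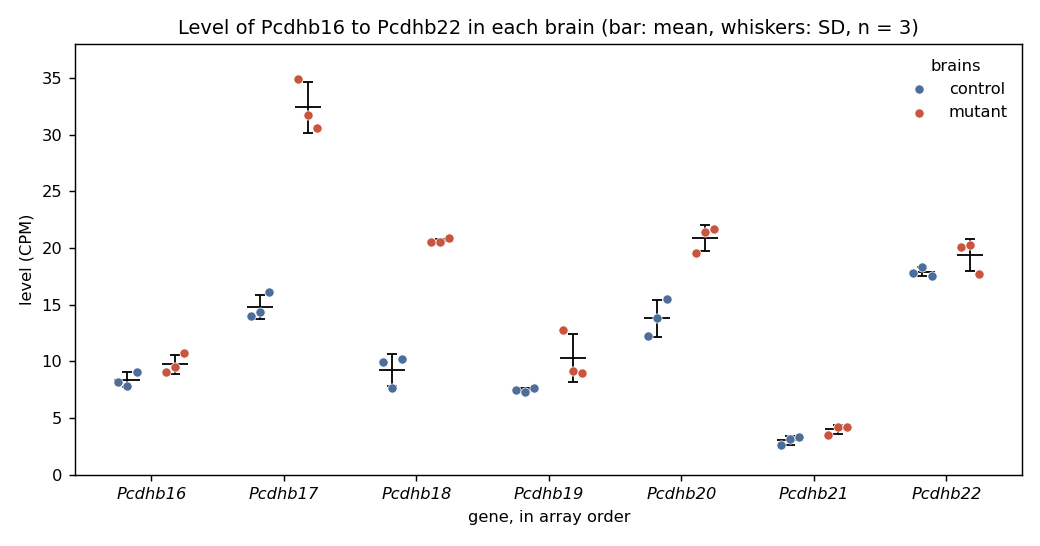
Level in CPM (vertical axis, linear from 0) of the 7 genes in array order, with 1 point per brain (blue control, red mutant), a bar at the mean and whiskers of 1 SD (n = 3 per group). The mutant points of Pcdhb17 lie between 30.6 and 34.9 CPM and those of Pcdhb18 between 20.5 and 20.9 CPM, far above their controls, while those of Pcdhb16 and Pcdhb22 overlap the control points.

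Pcdhb17 was at 14.0, 14.4 and 16.1 CPM in the control brains and at 34.9, 31.7 and 30.6 CPM in the mutant brains. The groups did not overlap, and the lowest mutant brain was far above the highest control brain. The mean went from 14.8 ± 1.09 to 32.4 ± 2.21 CPM (SD, n = 3), and edgeR fitted a log2 fold change of 1.13 ± 0.10 (SE; adjusted p 4.91e-06). The 95% interval of the change ran from 1.88-fold to 2.54-fold. The raw counts behind it were 196 to 436 per library. In the 12 other fits that were made, including the 6 that left out a library, the log2 fold change stayed between 1.07 and 1.19 and the gene was called in each.

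Pcdhb18, whose annotated start lies just behind the end of Pcdhb17, was at 9.91, 7.62 and 10.2 CPM in the control brains and at 20.5, 20.5 and 20.9 CPM in the mutant brains. The mutant brains were almost level with each other, and each was above all controls. From 9.24 ± 1.41 to 20.6 ± 0.216 CPM (SD, n = 3), edgeR fitted a log2 fold change of 1.15 ± 0.12 (SE; adjusted p 2.99e-05), with a 95% interval from 1.86-fold to 2.67-fold. The gene was called in all 12 other fits, with log2 fold changes from 1.04 to 1.23. The ratio of Pcdhb18 to Pcdhb17 CPM was 0.624 ± 0.0883 in control and 0.639 ± 0.0464 in mutant brains (SD, n = 3), and the groups overlapped in it (exact two-sided permutation p 0.9, adjusted over the 6 adjacent pairs 0.9). The ratio of neighbouring genes was chosen as a measure after the values of the genes were seen.

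Pcdhb20 rose by less. Its values were 12.2, 13.8 and 15.5 CPM in the control brains and 19.6, 21.4 and 21.7 CPM in the mutant brains. All mutant brains were above all controls, and the spread among the controls was wider than among the mutants. The mean rose from 13.8 ± 1.61 to 20.9 ± 1.16 CPM (SD, n = 3), for which edgeR fitted a log2 fold change of 0.60 ± 0.11 (SE; adjusted p 0.0159) and a 95% interval from 1.28-fold to 1.79-fold, so that the 2-fold limit was outside it. The adjusted p was above 0.05 without control replicate 1 (0.099), control replicate 2 (0.086), mutant replicate 2 (0.0898) or mutant replicate 3 (0.0879), with log2 fold changes of 0.51, 0.60, 0.58 and 0.57. Without control replicate 3, the library with Y-linked counts, it was 0.0176.

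Pcdhb19, which ends 135 bases before Pcdhb20 begins, was at 7.51, 7.32 and 7.69 CPM in the control brains and at 12.8, 9.18 and 9.02 CPM in the mutant brains. The groups did not overlap, but mutant replicate 1 stood apart from the other mutant brains. The fitted log2 fold change was 0.45 ± 0.15 (SE; edgeR adjusted p 0.404, unadjusted p 0.00893), and the 95% interval ran from 1.09-fold to 1.72-fold. It fell to 0.27 when mutant replicate 1 was left out (edgeR adjusted p 0.602). Among the 7 genes it also had the largest spread between replicates relative to counting noise, with a variance 2.89 times that of Poisson counts, against 0.673 to 1.81 times for the others.

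Pcdhb21 was the member with the fewest counts, 39 to 58 per library, and so the one with the widest interval. It was at 2.59, 3.15 and 3.37 CPM in the control brains and at 3.52, 4.25 and 4.22 CPM in the mutant brains. Every mutant brain was above every control brain, by a small margin. Its fitted log2 fold change, 0.40 ± 0.20 (SE), did not pass the test (edgeR adjusted p 0.804, unadjusted p 0.0662), and the 95% interval from 0.98-fold to 1.77-fold held no change as well as a change like that of Pcdhb20. A rise of the size seen in Pcdhb17 lay outside that interval.

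In Pcdhb16 and Pcdhb22, the first and the last of the 7 genes, the groups overlapped. Pcdhb16 was at 8.18, 7.84 and 9.11 CPM in the control brains and at 9.04, 9.48 and 10.7 CPM in the mutant brains. Its fitted log2 fold change was 0.22 ± 0.14 (SE; edgeR adjusted p 0.897, unadjusted p 0.133), and the 95% interval ran from 0.951-fold to 1.42-fold. A change as large as that of Pcdhb17 was therefore outside the interval, although the genes lie 1756 bases apart.

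For Pcdhb22 the values were 17.8, 18.3 and 17.5 CPM in the control brains and 20.1, 20.3 and 17.7 CPM in the mutant brains. A pair of the mutant brains was above all controls, and the remaining one was within the control range. The fitted log2 fold change was 0.12 ± 0.10 (SE; edgeR adjusted p 0.935, unadjusted p 0.284), and the 95% interval ran from 0.93-fold to 1.26-fold. The gene had 244 to 272 counts per library and a 2-fold change lay outside the interval. It had the smallest log2 fold change of the 21 beta genes tested.

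The called genes, Pcdhb17 and Pcdhb18, lay next to each other between Pcdhb16 and Pcdhb19, which did not pass the test. The ratio of Pcdhb17 to Pcdhb16 was 1.72, 1.83 and 1.76 in control and 3.86, 3.35 and 2.86 in mutant brains. That of Pcdhb19 to Pcdhb18 was 0.758, 0.962 and 0.755 in control and 0.623, 0.449 and 0.432 in mutant brains. Neither pair of genes overlapped between the groups in its ratio, and the permutation p (exact, two-sided) was 0.1 for both, the lowest value that 3 against 3 brains can give, and 0.2 after adjustment over the 6 adjacent pairs. No such ratio can pass 0.05 in this design, and the ratios restate the fold changes given above. Pcdhb21 over Pcdhb20, of which neither was called, did not overlap either (exact two-sided permutation p 0.1, adjusted 0.2). It was 0.212, 0.228 and 0.218 in control and 0.18, 0.199 and 0.194 in mutant brains. In Pcdhb22 over Pcdhb21 the groups overlapped (exact two-sided permutation p 0.2, adjusted 0.3). For Pcdhb20 over Pcdhb19 the ratio was 1.63, 1.89 and 2.01 in control and 1.53, 2.33 and 2.41 in mutant brains, so the groups overlapped (exact two-sided permutation p 0.5, adjusted 0.6), and the 95% intervals of their fold changes overlapped too.

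Per kilobase of the exonic bases that belong to a gene alone, the levels covered a wide range. In control brains Pcdhb20 was highest, at 3.89 ± 0.453 CPM per kb (SD, n = 3), followed by Pcdhb17 at 3.18 ± 0.234, Pcdhb22 at 2.91 ± 0.0627, Pcdhb18 at 1.83 ± 0.28, Pcdhb16 at 1.6 ± 0.126, Pcdhb19 at 1.05 ± 0.0259 and Pcdhb21 at 0.715 ± 0.0946. In this order Pcdhb20 and Pcdhb17 overlapped, as did Pcdhb18 and Pcdhb16, and the other neighbours did not overlap in their 3 control values. In mutant brains the first place went to Pcdhb17, at 6.95 ± 0.473 CPM per kb, with Pcdhb20 at 5.88 ± 0.326, Pcdhb18 at 4.09 ± 0.0428 and Pcdhb22 at 3.15 ± 0.234. Below them came Pcdhb16 at 1.86 ± 0.164, Pcdhb19 at 1.45 ± 0.299 and Pcdhb21 at 0.94 ± 0.0976, of which Pcdhb16 and Pcdhb19 overlapped. Pcdhb17 and Pcdhb20, which started from levels that overlapped in the controls, had log2 fold changes of 1.13 and 0.60 with 95% intervals from 0.91 to 1.34 and from 0.35 to 0.84.

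**Figure D2:**
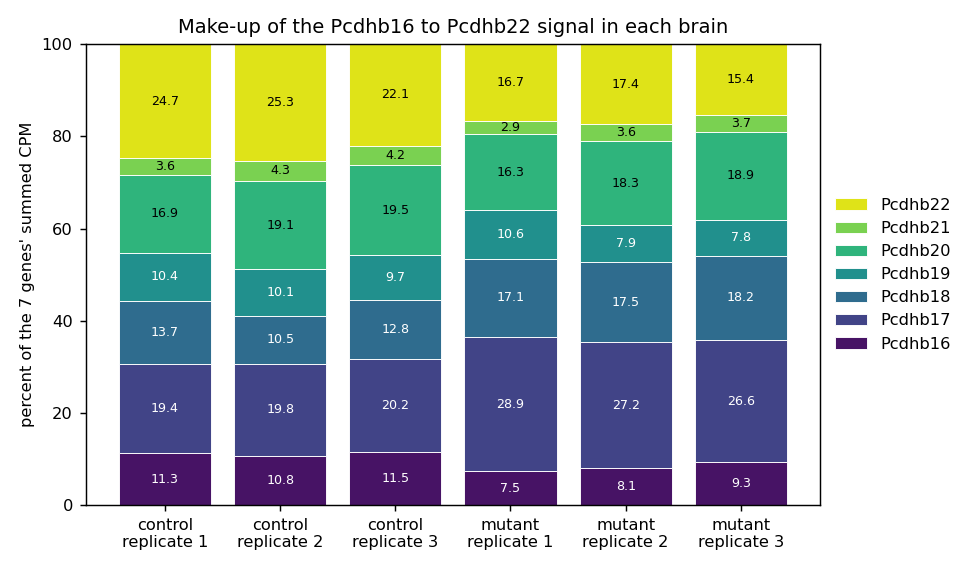
Percent of the summed CPM of the 7 genes (vertical axis, 0 to 100) that each gene held in each of the 6 brains (1 stacked bar per brain, colours for genes). Pcdhb22 took 22.1% to 25.3% in the control brains and 15.4% to 17.4% in the mutant brains, while Pcdhb17 took 19.4% to 20.2% and 26.6% to 28.9%.

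The make-up of the 7-gene signal was compared next, as each gene's share of the summed CPM within a brain, a ratio that does not depend on the scaling between libraries. Pcdhb22 held the largest share in the control brains, 24.0% ± 1.69 (SD, n = 3), and 16.5% ± 0.985 in the mutant brains. Pcdhb17 went from 19.8% ± 0.405 to 27.6% ± 1.2 and was the largest in every mutant brain. The share of Pcdhb18 went from 12.4% ± 1.65 to 17.6% ± 0.558 and that of Pcdhb16 from 11.2% ± 0.34 to 8.31% ± 0.918. These 4 shares did not overlap between the groups, and the permutation p (exact, two-sided) was 0.1 for all of them, the lowest value possible here, and 0.175 after adjustment over the 7 shares. The shares of Pcdhb19, Pcdhb20 and Pcdhb21 overlapped (exact two-sided permutation p 0.4, 0.5 and 0.3). Shares within a brain depend on each other, since a rise in 1 lowers the rest. The levels of Pcdhb22 and Pcdhb16 did not fall. Their means in control and mutant brains were 17.9 and 19.4 CPM for Pcdhb22, and 8.38 and 9.73 CPM for Pcdhb16.

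Summed over the 7 genes, the level was 72.3, 72.4 and 79.4 CPM in the controls and 120.5, 116.8 and 114.9 CPM in the mutants, with means of 74.7 ± 4.09 and 117.4 ± 2.86 CPM (SD, n = 3), 1.57 times the control level. Pcdhb17 and Pcdhb18 together accounted for 29.0 CPM of the 42.7 CPM that were added. The other 5 genes went from 50.7 ± 2.43 to 64.4 ± 0.876 CPM, 1.27 times.

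**Figure D3:**
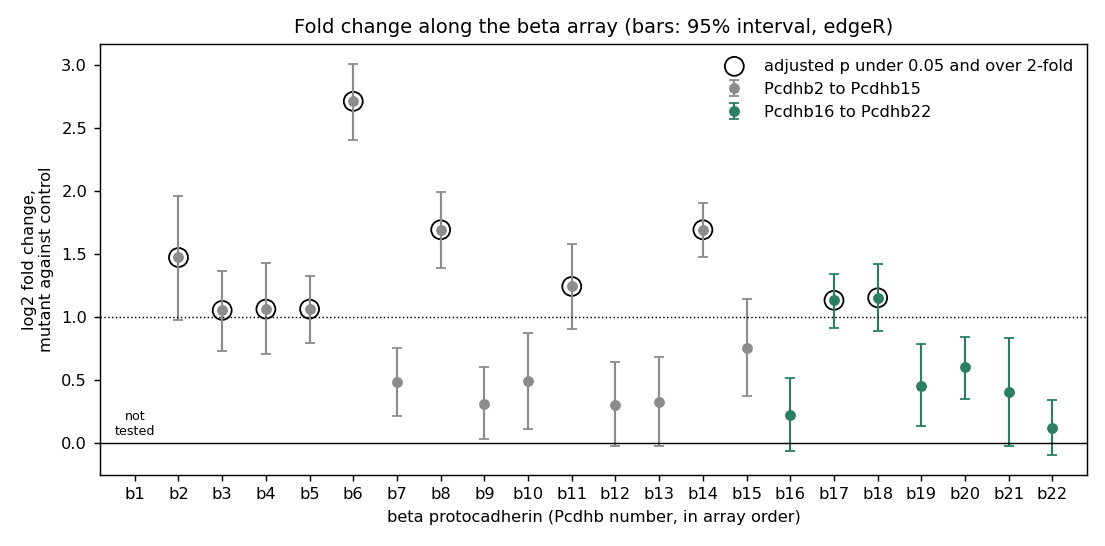
Log2 fold change, mutant against control (vertical axis), of the beta genes in array order, with 95% intervals from edgeR over 3 against 3 brains. Green marks Pcdhb16 to Pcdhb22, grey the other beta genes, and circles the genes called. The dotted line is the 2-fold limit. Pcdhb17 and Pcdhb18 are the called genes of the last 7, at 1.13 and 1.15.

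Of the 15 other beta genes (Pcdhb1 to Pcdhb15), 14 were tested and 8 were called higher, with a median log2 fold change of 1.05. The neighbouring stretch, Pcdhb9 to Pcdhb15, had values like those of the last 7, with 2 of 7 called and a median of 0.49, whereas in Pcdhb2 to Pcdhb8 it was 6 of 7 and 1.06. These stretches were set apart after the values were seen, and the difference between them was not tested, since the genes of an array share the same brains and were grouped with earlier results known. Among the 14 other beta genes tested, Pcdhb6 had the largest log2 fold change, 2.71 ± 0.14 (SE, edgeR adjusted p 2.78e-09). Pcdhb12 had the smallest of these 14, 0.30 ± 0.16 (SE, edgeR adjusted p 0.814). The 7 last genes held 47.1%, 46.7% and 50.8% of the summed beta CPM in the control brains and 40.0%, 40.5% and 40.8% in the mutant brains, so their share was smaller in every mutant brain.

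The genes beside the stretch differed between its ends. Upstream, Pcdhb15 ends 1473 bases before Pcdhb16 and went from 4.25 ± 1.02 CPM in the controls to 7.14 ± 0.187 CPM in the mutants (SD, n = 3), which did not pass the test (fitted log2 fold change 0.75 ± 0.18 SE, edgeR adjusted p 0.0919). Before it lies Pcdhb14, which was called and rose from 10.8 ± 0.135 to 34.7 ± 1.23 CPM. Downstream, the next annotated gene, the long noncoding RNA 4930517L18Rik, begins 94426 bases after Pcdhb22. In sum it had 0 counts in control and 3 counts in mutant brains and was not tested. Slc25a2, which encodes a mitochondrial carrier, had 8 and 11 counts and was not tested either. Taf7, which encodes a subunit of the general transcription factor TFIID, was at 11.6 ± 0.367 and 15.7 ± 1.88 CPM, and its fitted log2 fold change was 0.44 ± 0.12 (SE; edgeR adjusted p 0.169). The annotated read-through genes Gm42416, Gm37013 and Gm37388 span the stretch by their introns and had 0 counts in every library.

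Of the 6 genes taken for the HUSH complex and its partners, 1 was called lower, Mphosph8 itself, and 0 were called higher. Fam208a, which encodes the HUSH subunit TASOR, and Morc2a, which encodes an ATPase that works with the complex, were higher at an edgeR adjusted p under 0.05 without reaching 2-fold. Setdb1, which encodes a histone H3 lysine 9 methyltransferase, was at 63.6 ± 4.96 and 59.9 ± 5.52 CPM (SD, n = 3) and did not pass the test (edgeR adjusted p 0.947).

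The genes whose pattern was most like that of the 7 were found by the Pearson correlation, over the 6 libraries, of log2 CPM with the mean log2 CPM of the 7 genes. As the libraries form 2 groups, this measure mostly follows the difference between them. Among the 5 genes with the highest value were Gm16503 on chromosome 4 (r 0.994), Pcdhb5 (r 0.992), Gm26672 (r 0.99) and mt-Nd1 (r 0.989). Pcdhb5 belongs to the same array and was at 6.78, 6.37 and 7.09 CPM in the controls and at 14.3, 14.3 and 13.6 CPM in the mutants. Gm26672 lies on the minus strand between 37746559 and 37768242 of the same chromosome, with 5187 of its 6918 exonic bases opposite exons of the other strand. The mitochondrial gene mt-Nd1 had a fitted log2 fold change of 0.35 ± 0.08 (SE; edgeR adjusted p 0.0617), although the authors had removed reads of mitochondrial sequence.

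**Figure D4:**
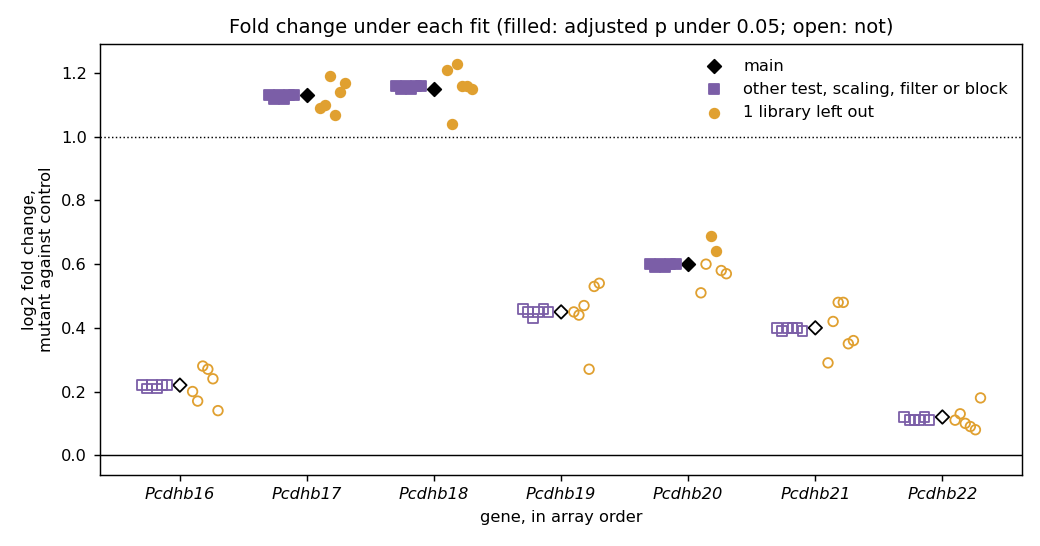
Log2 fold change, mutant against control (vertical axis), of each of the 7 genes in the fit of all 6 libraries (diamond), in the 6 fits with another test, scaling, filter or block (squares) and in the 6 fits that left out a library (circles). Filled symbols passed an adjusted p of 0.05. Pcdhb17 and Pcdhb18 stay above the dotted 2-fold limit throughout, between 1.04 and 1.23, and Pcdhb20 loses its filled symbol in 4 of the 6 fits without a library.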

How the data were processed

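The authors made polyA-selected libraries of whole-brain RNA, sequenced single short reads, trimmed them with Trim Galore 0.5.0, removed ribosomal, mitochondrial, phiX and adapter reads with Bowtie2 2.3.4.1, aligned the rest to GRCm38 with STAR and used featureCounts (Subread 1.6.2) to count them by Ensembl gene. The deposited values are raw counts. Strand use and the handling of multi-mapping reads were not given in the sources used here.

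Symbols and exons came from GENCODE M21 (GRCm38), which matched 54495 identifiers. The counts were tested with edgeR 4.0.16 in R 4.3.3 (filterByExpr, TMM, quasi-likelihood F test, genotype as the only term). Standard errors and 95% intervals were derived from the F statistic, and CPM used the effective library size. Alternative fits used DESeq2 1.42.0, limma-voom (limma 3.58.1), RLE scaling, no filter, at least 1 CPM in 3 libraries, the replicate number as a block, other fold limits and each library left out. The code was tested on simulated counts.

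The genes named were the 7 members, Mphosph8, the nearest genes with Slc25a2 and Taf7, the other beta genes with the largest and smallest change, and the 5 most alike in pattern (log2 CPM with a prior count of 2), of which 1 is not reported here. Mog, Cldn11, Ddx3y, Xist, Fam208a, Morc2a, Setdb1 and the 4 choroid plexus markers were picked after their values were seen. The members and lists were chosen with earlier results of these data known. Of the other marker lists, 0 genes for astrocytes, microglia, endothelium, blood or choroid plexus passed an edgeR adjusted p of 0.05. DESeq2 and limma-voom each put 1 choroid plexus gene lower. The summed markers of that tissue were at 1416.1 to 1709.1 CPM in the controls and 1046.2 to 1250.4 CPM in the mutants, which did not overlap. Most of the sum was Ttr, at 1498.4 ± 153.0 and 1100.4 ± 101.8 CPM (SD, n = 3). Folr1, Kcnj13 and Clic6 had log2 fold changes of -0.18, -0.36 and 0.03 (edgeR adjusted p 0.931, 0.808 and 0.992), with groups that overlapped. The part of these markers in the protocadherin values was not tested. At an unadjusted p under 0.05, edgeR and limma-voom each had 1 astrocyte gene higher and 1 choroid plexus gene lower, and DESeq2 had 3 astrocyte genes higher, 1 astrocyte gene lower and 1 choroid plexus gene lower.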

Additional observations from a re-analysis of the deposited data

How the results depend on the processing

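The alternatives left the main picture in place. Pcdhb17 and Pcdhb18 were called, and 2 members in all, in each of the 12 other fits. With a fold limit of 1.5 or none, 3 members were called. The other beta genes called numbered 8, or 6 without mutant replicate 1. Pcdhb20 kept its direction, and its log2 fold change ranged from 0.51 to 0.69 over the fits that left out a library, 4 of which put its adjusted p above 0.05. For Pcdhb16, Pcdhb19, Pcdhb21 and Pcdhb22, 0 of the 12 fits passed. The log2 ratio of the summed CPM was 0.65, against 0.57 as the mean of log2 CPM over members. It was 0.50 as the sum leaving out Pcdhb17, the member with the most counts. Both differed from 0.65 by more than the pooled SD of the log2 sum between brains. The size of the summed rise thus depended on Pcdhb17 and on how the genes were weighted. The deviations of same-numbered brains from their group means correlated at 0.10, -0.05 and 0.08. With 3 brains per group, these values cannot show whether same-numbered brains shared a litter or a batch. The study describes control and mutant brains as littermates without saying which belong together. With the replicate block, 124 genes passed an edgeR adjusted p of 0.05 in place of 105, and 62 were called in place of 60. Pcdhb20 was then at 0.60 with an adjusted p of 0.00939. The depth limits Pcdhb21 most.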
